A study of Mus musculus with 3 samples.

Results

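The genes that set regional identity along the gut were followed in single epithelial cells of mouse small intestinal crypts. The set held 10 transcription factor genes, *Cdx1*, *Cdx2*, *Gata4*, *Gata5*, *Gata6*, *Onecut2*, *Pdx1*, *Hnf4a*, *Hnf4g* and *Sox2*, taken by symbol from the 28692 genes of the count tables. All 10 were found. Epithelial cells were barcodes with at least 500 genes, at least 1000 unique molecular identifiers (UMIs, each a counted RNA molecule), at most 20% mitochondrial UMIs, at least 2 UMIs of the epithelial adhesion gene *Epcam* and 0 UMIs of the leukocyte gene *Ptprc*. A gene's level is given as CPM, its UMIs per 1000000 UMIs of the cells summed. The kit reads the 3′ end of each transcript, so CPM is not divided by gene length, and levels of different genes are not ranked against each other.

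The mice were adult C57BL/6 animals of 2 to 3 months, and all carried Olfm4-IRES-eGFPCreERT2, a Cre recombinase that tamoxifen activates in cells expressing the crypt base stem cell gene *Olfm4*. The library labelled Het came from CDC42+/flox mice, with 1 floxed *Cdc42* allele. The library labelled KO came from CDC42flox/flox mice, and the library labelled Rescue from CDC42flox/flox; Yapflox/flox; Tazflox/+ mice. CDC42 is a small GTPase of cell polarity, and YAP and TAZ (genes *Yap1* and *Wwtr1*) are transcriptional co-activators of the Hippo pathway. The labels give neither the dose and time of tamoxifen nor the number of mice in a library. Crypts alone were harvested, so villus cells were sampled only as far as they came along.

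There was 1 library per genotype. Differences between libraries therefore have no replicate check and no test, and each 95% interval below covers counting error only. A level is a gene's share of the RNA of the cells summed, and it cannot tell a higher share of expressing cells from more RNA per cell. After the limits 515 Het-labelled, 1504 KO-labelled and 726 Rescue-labelled epithelial cells remained, with 18549801, 61355024 and 39846684 UMIs. Their median depth was 33401, 41467 and 46115 UMIs per cell. Between 38.3% and 66.3% of the barcodes of a library were over the mitochondrial limit. Of all barcodes 3 to 11 were shared between any pair of libraries, and 0 among the epithelial cells. *Cdc42* stood at 249, 384 and 383 CPM in Het-, KO- and Rescue-labelled epithelium and so was not lower where both alleles were floxed. The labels do not say which part of the gene is floxed, and a 3′ tag outside that part checks nothing. *Yap1* stood at 26.4, 24.6 and 20.4 CPM and *Wwtr1* at 7.33, 13.3 and 2.86, both lowest in the library labelled Rescue. Groups are named by their labels throughout.

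CDX1 and CDX2 are homeodomain factors of the intestine, and loss of CDX2 in intestinal epithelium is known to bring up stomach genes. GATA4, GATA5 and GATA6 are zinc finger factors, and GATA4 is known to keep proximal small intestine distinct from ileum. PDX1 is the homeodomain factor of pancreas, gastric antrum and duodenum. ONECUT2 is a homeodomain factor of duodenum and of enteroendocrine cells. HNF4A and HNF4G are paired nuclear receptors that drive brush border and lipid genes of enterocytes. SOX2 is the factor of foregut and stomach.

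The sequences below lie just before the start sites of 3 members. *Pdx1* and *Hnf4a* are shown as the members more than 2-fold higher in KO-labelled epithelium, and *Cdx2* as the neighbour of *Pdx1*, the next protein-coding gene on chromosome 5, with no such difference. Each run is the 250 bases before an annotated start, read 5′ to 3′ on the gene's strand, from RefSeq on GRCm38.p6. The table of starts held 5 of the 10 members.
Pdx1, chr5:147269847-147270096, plus strand: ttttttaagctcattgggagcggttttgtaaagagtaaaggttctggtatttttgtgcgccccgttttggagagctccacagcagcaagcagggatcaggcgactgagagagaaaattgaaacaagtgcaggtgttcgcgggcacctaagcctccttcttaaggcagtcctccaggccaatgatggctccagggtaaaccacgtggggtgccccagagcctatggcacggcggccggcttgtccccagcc
Cdx2, chr5:147307250-147307499, minus strand: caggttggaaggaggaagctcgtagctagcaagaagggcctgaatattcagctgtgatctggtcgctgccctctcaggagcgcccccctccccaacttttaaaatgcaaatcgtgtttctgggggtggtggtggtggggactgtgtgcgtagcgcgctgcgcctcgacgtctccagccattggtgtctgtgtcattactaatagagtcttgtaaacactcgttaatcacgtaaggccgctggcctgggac
Hnf4a, first start, chr2:163506607-163506856, plus strand: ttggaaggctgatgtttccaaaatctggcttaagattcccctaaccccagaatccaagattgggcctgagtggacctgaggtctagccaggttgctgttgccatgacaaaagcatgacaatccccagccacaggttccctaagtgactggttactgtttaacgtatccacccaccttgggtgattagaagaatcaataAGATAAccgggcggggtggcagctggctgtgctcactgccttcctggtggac
Hnf4a, second start, chr2:163546905-163547154, plus strand: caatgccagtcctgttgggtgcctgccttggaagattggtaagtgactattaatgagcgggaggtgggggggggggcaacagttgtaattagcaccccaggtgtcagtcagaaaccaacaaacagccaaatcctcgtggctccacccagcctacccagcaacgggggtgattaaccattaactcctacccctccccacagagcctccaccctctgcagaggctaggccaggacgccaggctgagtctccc

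Capitals mark matches, on either strand, to 4 motifs: CAATAAA for CDX factors, AGATAA for GATA factors, CAAAGTCCA for HNF4 factors and GGAATG for TEAD factors, the DNA-binding partners of YAP and TAZ. The single match was a GATA motif before the first *Hnf4a* start, starting at base 199 of that run. Among the same windows of 32851 annotated starts, 4.20% held the CDX motif, 9.99% the GATA motif, 0.384% the HNF4 motif and 12.6% the TEAD motif. A match describes letters and is not a binding site, and these windows say nothing of enhancers farther away.

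The levels of the members differed most for *Pdx1*, *Hnf4a* and *Cdx1*. *Pdx1* and *Hnf4a* were highest in KO-labelled epithelium, *Cdx1* was lowest there, and for these 3 genes Rescue-labelled epithelium lay nearer the Het-labelled level than the KO-labelled one. Beside them *Onecut2* and *Gata4* were highest, and *Cdx2* and *Gata6* lowest, in KO-labelled cells. The levels of *Gata5* and of *Hnf4g* over all gated cells differed by at most 1.24-fold between libraries. The ratios of *Hnf4g* changed much with the mitochondrial limit, as given at the end. *Sox2* was practically undetected.

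**Figure D1:**
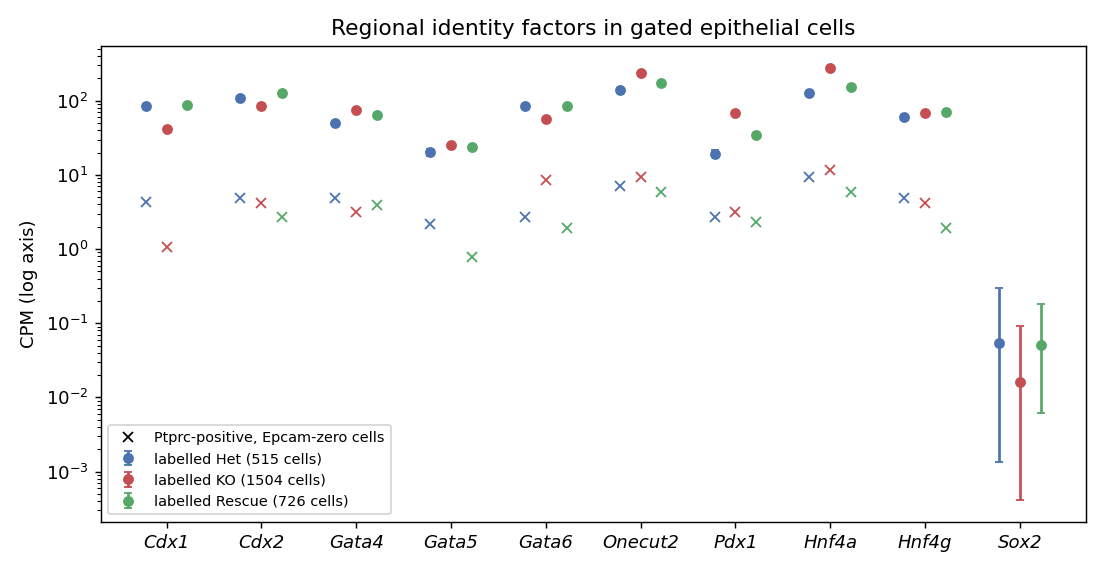
Levels of the 10 members (CPM, log axis) in gated epithelial cells of the libraries labelled Het, KO and Rescue, with points for CPM and bars for the exact Poisson 95% interval, and with crosses for Ptprc-positive, Epcam-zero cells (a member at 0 has no cross). Each of 9 members lies above its crosses, which end at 11.6 CPM, while Sox2 rests on 1, 1 and 2 UMIs.

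*Cdx1* (ENSMUSG00000024619) measured 85.4 CPM (95% interval 81.2 to 89.7) in Het-labelled, 42.2 (40.6 to 43.9) in KO-labelled and 86.5 (83.6 to 89.4) in Rescue-labelled epithelium. The KO-labelled level was thus 2.02-fold below the Het-labelled one (1.90 to 2.16), and the Rescue-labelled level was 2.05-fold above the KO-labelled one (1.95 to 2.16). *Cdx2* (ENSMUSG00000029646) followed the same order with less distance, at 109, 86.0 and 127 CPM. Its KO-labelled level was 1.27-fold below the Het-labelled one (1.21 to 1.34).

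The GATA genes did not differ in 1 common direction. *Gata6* (ENSMUSG00000005836) measured 85.9, 56.6 and 84.1 CPM in Het-, KO- and Rescue-labelled epithelium, 1.52-fold lower (1.43 to 1.61) in KO-labelled than in Het-labelled cells. *Gata4* (ENSMUSG00000021944) measured 50.2, 76.2 and 64.7 CPM, and its ratio of KO over Het was 1.52 (1.41 to 1.63) in the other direction. *Gata5* (ENSMUSG00000015627) measured 20.1, 25 and 23.8 CPM, with a ratio of 1.24 (1.11 to 1.40).

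*Pdx1* (ENSMUSG00000029644) had the highest ratio of all members. It measured 19.3 CPM (17.4 to 21.4) in Het-labelled, 67.4 (65.4 to 69.5) in KO-labelled and 34.6 (32.8 to 36.5) in Rescue-labelled epithelium. The ratio of KO over Het was 3.49 (3.13 to 3.90), which stood at percentile 95.3 of the 12668 genes compared. Rescue-labelled cells lay 1.95-fold below KO-labelled ones (1.83 to 2.07) and 1.79-fold above Het-labelled ones (1.60 to 2.02). *Onecut2* (ENSMUSG00000045991) measured 141, 239.6 and 171 CPM, with a ratio of KO over Het of 1.70 (1.63 to 1.77).

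The HNF4 genes differed in the size of their contrast. *Hnf4a* (ENSMUSG00000017950) measured 126 CPM (121 to 131), 276 (272 to 280.4) and 154 (150.1 to 158) in Het-, KO- and Rescue-labelled epithelium, a ratio of KO over Het of 2.19 (2.10 to 2.29). *Hnf4g* (ENSMUSG00000017688) measured 61.3, 69.1 and 69.5 CPM, a ratio of 1.13 (1.05 to 1.20). *Sox2* (ENSMUSG00000074637) had 1, 1 and 2 UMIs in all. Its upper 95% limits were 0.300, 0.0908 and 0.181 CPM, so no comparison was made for it, and 9 members were measured.

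Background from free RNA was gauged in cells with *Ptprc* UMIs and 0 of *Epcam* (366, 125 and 472 cells, median depth 4956, 4885 and 4804 UMIs). There the members reached between 0 and 11.6 CPM, with *Hnf4a* in the KO-labelled library at the top. In epithelium each measured member lay above its level there. In the Het-labelled library *Pdx1* was 2.73 CPM in these cells against 19.3 in epithelium, and *Gata5* 2.19 against 20.1. Asking for 0 *Epcam* UMIs leaves out *Ptprc*-positive barcodes with more epithelial RNA, so these values can be too low. At equal depth the share of cells with a UMI was also highest in KO-labelled cells for *Pdx1* and *Hnf4a*, and lowest there for *Cdx1*. With each cell thinned to 20000 UMIs, 379, 1092 and 624 epithelial cells could be used and 136, 412 and 102 shallower ones were left out. *Pdx1* was then seen in 31.1%, 65.8% and 39.4% of Het-, KO- and Rescue-labelled cells (37.9%, 70.4% and 60.9% without thinning). *Cdx1* was seen in 76.0%, 46.7% and 73.2% (77.7%, 57.8% and 82.2% without thinning), and *Hnf4a* in 84.4%, 98.6% and 90.9% (81.9%, 91.6% and 93.0%). At 2000 UMIs, where leukocytes could be thinned as well, *Pdx1* was seen in 5.44%, 12.1% and 7.02% of epithelial cells and in 1.13%, 0.847% and 0% of the *Ptprc*-positive cells. The 0% stands for 0 of 466 cells, with an exact upper limit of 0.788%.

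A member was counted as apart where its ratio was at least 2 or at most 0.5, among genes with at least 20 UMIs in one of the groups. For KO over Het 2 of the 9 measured members, *Pdx1* and *Hnf4a*, were higher, against 10.8% of all 12668 genes. In the other direction 1 member, *Cdx1*, was lower, against 25.3% of all genes. For Rescue over KO 1 member, *Cdx1*, was higher (22.7% of 12743 genes) and 0 were lower (11.1%). For Rescue over Het 0 members were apart in either direction, where 3.52% of 12419 genes were higher and 11.6% lower. These 3 comparisons share libraries and are not independent of each other. With so few members, the counts do not set the list off from other genes.

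Scaling and the mix of cells bear on these ratios. Trimmed-mean (TMM) scaling moved every log2 ratio of KO over Het by 0.44, and the all-gene calls then went from 10.8% higher and 25.3% lower to 18.8% higher and 16.2% lower. On that scale the log2 ratio of *Cdx2* turned from −0.34 to 0.09, that of *Cdx1* shrank from −1.02 to −0.58, and those of *Onecut2* (1.20) and *Gata4* (1.04) passed 2-fold, while *Pdx1* reached 2.24. For Rescue over KO the shift was −0.34, with calls of 13.6% higher and 16.5% lower in place of 22.7% and 11.1%. In cells with over cells without *Tff1* or *Ctse*, a comparison within the KO-labelled library given below, the shift was 0.35. Paneth-like cells, rich in defensin RNA, held 20.4% of Het-labelled epithelial UMIs, 0% of KO-labelled and 3.47% of Rescue-labelled ones. Without them the ratio of KO over Het was 2.95 for *Pdx1*, 1.86 for *Hnf4a* and 1.41 for *Onecut2*. *Cdx1* was then 2.38-fold lower and *Cdx2* 1.52-fold lower, and *Hnf4g* turned to 1.08-fold lower.

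Cells were clustered over all libraries with the 10 members left out of the clustering genes, and clusters were named from marker lists. Of 19 clusters 14 got a name. ISC-like stands for intestinal stem cells and TA-like for transit amplifying cells, their dividing progeny. Most clusters came largely from 1 library, so a cluster may stand for a library as much as for a cell type. The ISC-like and TA-like class was held by cluster 10 in Het-labelled cells, by cluster 7 in KO-labelled cells and by cluster 1 in Rescue-labelled cells. The Enterocyte-like class was held by cluster 11 in Het-labelled cells, by clusters 0, 2, 3 and 5 in KO-labelled cells and by cluster 13 in Rescue-labelled cells. The Goblet-like class was held by cluster 12 in Het-labelled cells, mostly by cluster 4 in KO-labelled cells (177 of 198, with 21 in cluster 12) and by clusters 12 and 4 in Rescue-labelled cells. Within cluster 12 alone the 21 KO-labelled and 64 Het-labelled cells had *Cdx2* at 111 and 70.2 CPM, *Onecut2* at 98.3 and 149, and *Pdx1* at 45.1 and 15.7.

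**Figure D2:**
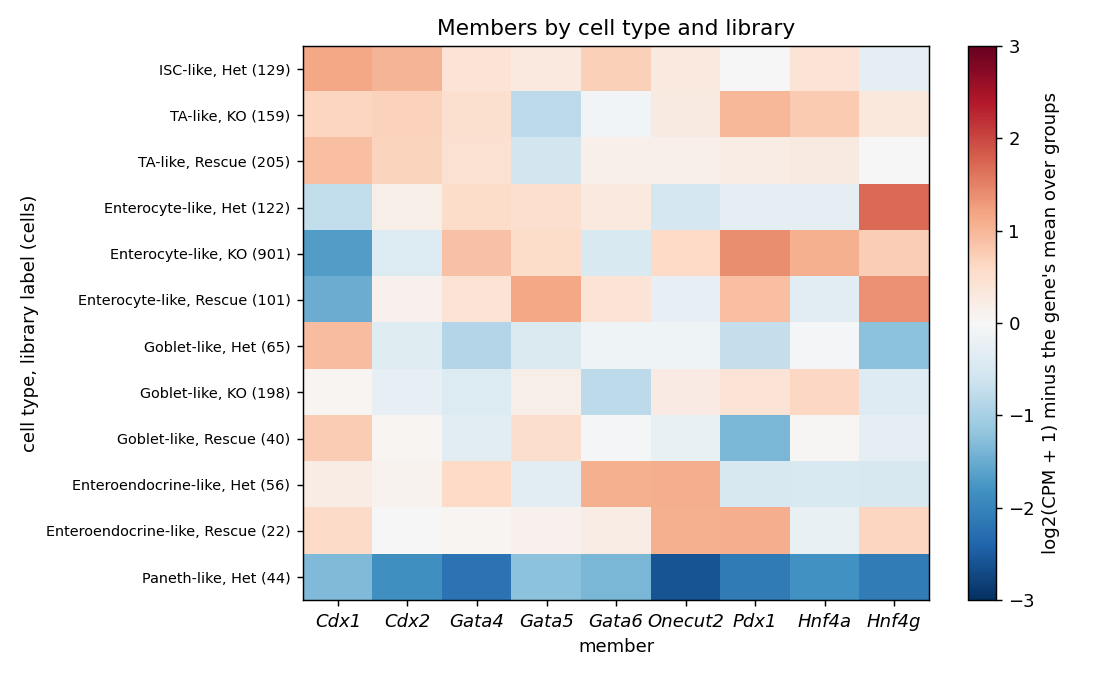
Levels of the 9 measured members in the 12 library-by-type groups of at least 20 cells, as log2(CPM + 1) minus the gene's mean over the groups (red higher, blue lower). Paneth-like cells are low for all 9, Cdx1 is low in Enterocyte-like groups of every library, and Pdx1 and Hnf4a are highest in KO-labelled Enterocyte-like cells.

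Within Het-labelled cells the members differed between the 5 types of at least 20 cells. *Cdx1* was 155 CPM in ISC-like, 133 in Goblet-like, 81.0 in Enteroendocrine-like, 41.4 in Enterocyte-like and 27.0 in Paneth-like cells. *Hnf4g* had another order, at 136 CPM in Enterocyte-like cells against 33.4 in ISC-like and 16.9 in Goblet-like ones. *Cdx2* ranged from 185 CPM in ISC-like to 24.4 in Paneth-like cells, with Enterocyte-like (103) and Enteroendocrine-like (97.0) cells not separated by their intervals. *Onecut2* peaked in Enteroendocrine-like cells at 351 CPM, where *Gata6* had its peak as well at 155. *Pdx1* was between 15.7 and 26.2 CPM in 4 of these types and at 5.30 CPM in Paneth-like cells.

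Across libraries *Pdx1* and *Hnf4a* were higher in KO-labelled than in Het-labelled cells in each of 3 classes. In ISC-like and TA-like cells (159 KO-labelled, 148 Het-labelled and 205 Rescue-labelled cells) *Pdx1* stood at 53.7, 26.4 and 31.3 CPM, a ratio of KO over Het of 2.03 (1.68 to 2.47). In Enterocyte-like cells (901, 122 and 101 cells) it stood at 71.1, 21.8 and 50.8 CPM, a ratio of 3.26 (2.72 to 3.95). In Goblet-like cells (198, 65 and 40 cells) it stood at 36.0, 15.7 and 9.64 CPM, a ratio of 2.30 (1.52 to 3.60). The Rescue-labelled level of *Pdx1* therefore had no fixed place: it was 2.33-fold above the Het-labelled level in Enterocyte-like cells (1.86 to 2.93), and in the other 2 classes its ratio to Het had an interval that held 1. *Hnf4a* had ratios of KO over Het of 1.3 (1.21 to 1.40), 2.61 (2.41 to 2.83) and 1.57 (1.37 to 1.82) in ISC-like and TA-like, Enterocyte-like and Goblet-like cells. In Rescue-labelled Enterocyte-like cells *Hnf4a* was 111 CPM against 114 in Het-labelled and 296 in KO-labelled ones.

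*Cdx1*, *Cdx2* and *Gata6* were lower in KO-labelled cells of each of these classes too, apart from *Cdx2* in Goblet-like cells. *Cdx1* in KO-labelled cells was 1.41-fold below the Het-labelled level in ISC-like and TA-like, 1.98-fold in Enterocyte-like and 1.85-fold in Goblet-like cells. Its Rescue-labelled level was 1.64-fold above the KO-labelled one in Goblet-like cells (1.38 to 1.95) and 1.20-fold in ISC-like and TA-like cells (1.11 to 1.3). In Enterocyte-like cells the Rescue-labelled level, 24.1 CPM, was near the KO-labelled 20.9 and below the Het-labelled 41.4. The 2.05-fold ratio over all epithelium was thus not met within any of these classes, which leave out the unnamed clusters. Of the 726 Rescue-labelled cells, 129 and 164 lay in unnamed clusters 6 and 8, with *Cdx1* at 93.7 and 51.3 CPM. Unnamed cluster 9 held 160 KO-labelled cells, with *Cdx1* at 55.7 CPM. *Gata6* was 1.66-fold, 1.69-fold and 1.58-fold lower in KO-labelled cells of the 3 classes, and its Rescue-labelled level in Enterocyte-like cells was 97.6 CPM against 53.7 in KO-labelled ones. *Cdx2* was lower in ISC-like and TA-like (1.26-fold) and Enterocyte-like cells (1.51-fold), and in Goblet-like cells its ratio was 1.08 (0.878 to 1.34). The small Enteroendocrine-like class, all in cluster 14, had 56 Het-labelled, 19 KO-labelled and 22 Rescue-labelled cells. In it *Gata6* was 155, 61.4 and 86.0 CPM, 2.53-fold lower in KO-labelled than in Het-labelled cells. *Pdx1* was 18.8, 37.5 and 57.9 CPM, with a ratio of KO over Het of 1.99 (0.862 to 4.36) and of Rescue over Het of 3.07 (1.74 to 5.59).

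3 members had class-dependent differences that the level over all epithelium hid. *Hnf4g* in KO-labelled cells was 1.99-fold below the Het-labelled level in Enterocyte-like cells (68.4 against 136 CPM), but its ratio of KO over Het was 1.43 (1.21 to 1.71) in ISC-like and TA-like and 1.84 (1.23 to 2.85) in Goblet-like cells. *Onecut2* was 248 against 113 CPM in Enterocyte-like cells, a ratio of 2.19 (2.02 to 2.38), and 199 against 199.8 CPM in ISC-like and TA-like cells, a ratio of 0.995 (0.921 to 1.07). *Gata5* was 2.10-fold lower in KO-labelled ISC-like and TA-like cells (11.2 against 23.5 CPM), and 29.7 against 29.0 CPM in Enterocyte-like ones. Its Rescue-labelled level in ISC-like and TA-like cells was 13.4 CPM, a ratio of Rescue over KO of 1.20 (0.928 to 1.56). The Het-labelled cells of this class were mostly ISC-like (129 of 148), whereas all those of the other libraries were TA-like. Against the 19 Het-labelled TA-like cells alone, *Gata5* had a ratio of KO over Het of 0.650 (0.374 to 1.21), *Hnf4g* 1.05 (0.765 to 1.47), *Gata6* 0.839 (0.656 to 1.09) and *Pdx1* 1.96 (1.3 to 3.09).

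**Figure D3:**
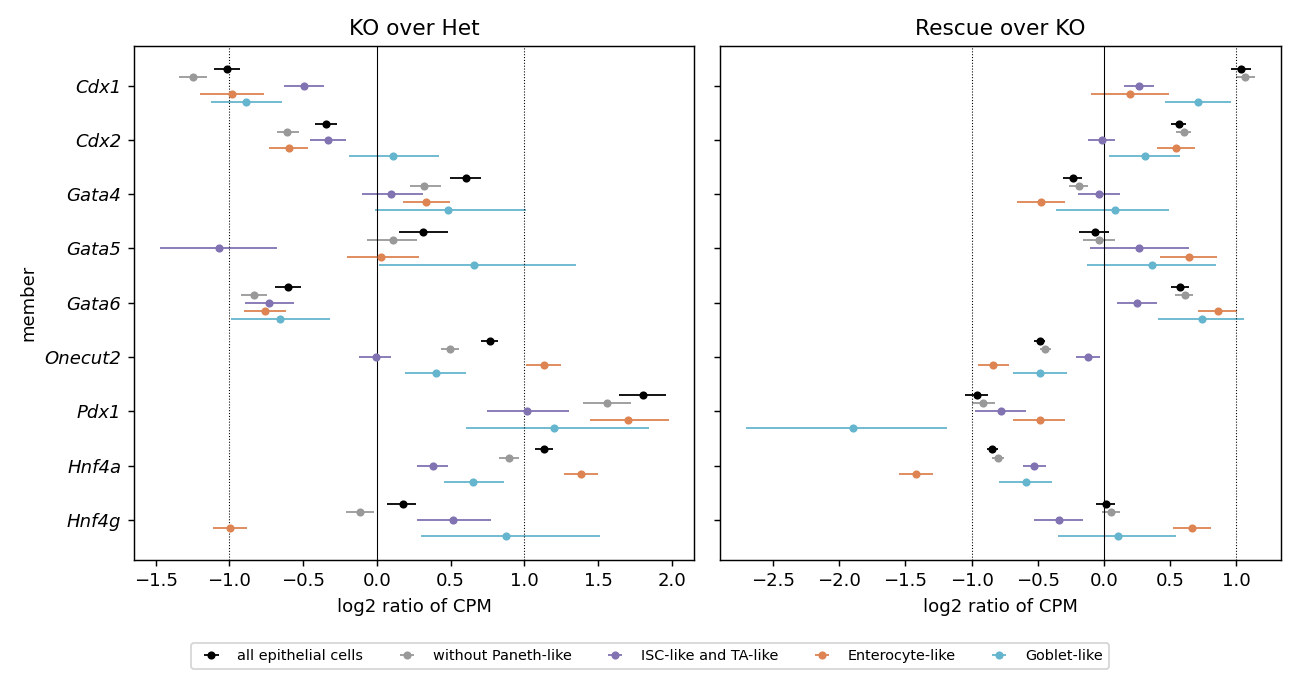
Log2 ratio of CPM for KO over Het (left) and Rescue over KO (right) in all epithelial cells, without Paneth-like cells, and within 3 classes, with bars for the 95% interval of counting error and dotted lines at 2-fold. Pdx1 lies right of 0 for KO over Het in every population plotted, and Hnf4g lies on either side of 0 depending on the class.

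Within KO-labelled Enterocyte-like cells the clusters differed in these genes. Cluster 2 (213 cells), with *Clca4a*, *Ly6d*, *Nt5e* and *Ada* among its leading genes, had 11.9 CPM of *Cdx1* (9.88 to 14.3), 33.2 of *Cdx2* (29.7 to 37.0) and 18.7 of *Hnf4g* (16.1 to 21.6). It had 356 CPM of *Hnf4a* (344 to 368), 101 of *Gata4* and 48.4 of *Pdx1* (44.1 to 52.9). Cluster 0 (292 cells), with *Ugt2b38*, *Enpp3* and the duodenal iron reductase gene *Cybrd1* among its leading genes, had 86.9 CPM of *Pdx1* (81.9 to 92.2), 20.4 of *Cdx1*, 72.3 of *Cdx2* and 70.5 of *Hnf4g*. Clusters 3 and 5 (204 and 192 cells) had *Cdx2* at 95.4 and 79.5 CPM, *Hnf4g* at 97.4 and 96.6 and *Pdx1* at 76.1 and 69.8. Outside the named classes, KO-labelled cluster 9 (160 cells, led by *Slpi*, *Dcn* and *Saa3*) had 88.0 CPM of *Pdx1* (81.7 to 94.7) and 118 of *Cdx2*. Of the 7 stromal markers 6 were 2-fold over the other cells in that cluster, whose *Epcam* was 2583 CPM, and the part of stromal RNA in its levels was not tested.

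The KO-labelled library was then split by the stomach genes *Tff1*, a trefoil peptide of gastric surface cells, and *Ctse*, which encodes cathepsin E, a protease of stomach. At least 1 UMI of either was found in 1083 of 1504 KO-labelled epithelial cells, in 2 of 515 Het-labelled and in 25 of 726 Rescue-labelled ones. *Tff1* stood at 63.5 CPM in KO-labelled epithelium and had 0 UMIs in the others, and *Ctse* stood at 0.108, 274 and 1.36 CPM in Het-, KO- and Rescue-labelled cells. *Ctse* was also present in *Ptprc*-positive cells, at 17.5, 10.6 and 20.6 CPM. Cells with either gene were deeper, with a median of 46482 UMIs against 16544 in the 421 cells without.

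None of the 9 measured members differed 2-fold between these cells, where 2.58% of 11794 genes were higher and 14.5% lower in cells with the stomach genes. *Cdx1* was 37.9 CPM (36.3 to 39.7) in cells with and 62.3 (57.7 to 67.2) in cells without, 1.64-fold lower (1.5 to 1.79). *Cdx2* was 81.7 against 107 CPM, 1.3-fold lower (1.22 to 1.39). *Pdx1* was 70.7 against 52.1 CPM, a ratio of 1.36 (1.24 to 1.48). *Gata4* (1.20), *Gata5* (1.22), *Onecut2* (1.16) and *Hnf4a* (1.09) had smaller ratios above 1, and the intervals of *Gata6* and *Hnf4g* held 1. In cells without the stomach genes *Pdx1* was thus still above the Het-labelled 19.3 CPM, and *Cdx1* still below the Het-labelled 85.4.

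Within cell types the *Cdx1* difference was much smaller than over all cells, and the *Pdx1* difference was slightly smaller. Cells with the stomach genes were 67.5% Enterocyte-like and 7.66% TA-like, and cells without were 40.4% Enterocyte-like and 18.1% TA-like. Within TA-like cells *Cdx1* was 104 against 115 CPM, within Enterocyte-like cells 20.7 against 22.5 and within Goblet-like cells 71.4 against 75, and all 3 intervals of the ratio held 1. With equal weight for each type the log2 ratio of *Cdx1* was −0.12 in place of −0.72. *Pdx1* was 59.1 against 44.5 CPM in TA-like, 73.0 against 54.5 in Enterocyte-like and 37.2 against 29.5 in Goblet-like cells, where the interval of the ratio (0.819 to 2.02) held 1. Its log2 ratio was 0.40 at equal weight of types, against 0.44 over all cells. In each of the 7 clusters compared the *Pdx1* level was higher in cells with the stomach genes, by 1.23-fold to 2.26-fold, and in 5 of them the interval lay above 1. *Onecut2* had 3 such clusters of 7, *Gata4*, *Hnf4a* and *Hnf4g* 1 each, and the other members 0. In the opposite direction *Hnf4a* was lower in cells with the stomach genes in 3 of the 7, with the interval under 1. In cluster 2, with 188 cells against 25, *Hnf4g* was 17.3 against 34.8 CPM (156 and 27 UMIs), 2.01-fold lower (1.29 to 3.05). *Cdx1* was 11.2 against 20.6 there (101 and 16 UMIs), 1.84-fold lower (1.02 to 3.14). Over the 7 clusters the ratio ran from 0.496 to 1.63 for *Hnf4g* and from 0.542 to 1.26 for *Cdx1*. Among the KO-labelled Enterocyte-like clusters 0, 2, 3 and 5, cluster 2 had the highest *Ctse* (549 CPM) and the lowest *Pdx1* (48.4 CPM).

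In TA-like cells the split rested on low levels, since *Tff1* stood at 2.55 CPM and *Ctse* at 27.9, against 4.22 and 10.6 CPM in KO-labelled *Ptprc*-positive cells. At their depth, free RNA at that *Tff1* level can give TA-like cells the 1 UMI that puts them on the other side. The *Ctse* level of *Ptprc*-positive cells does not measure free RNA. In the Het-labelled library it was 17.5 CPM, with 0.108 in the epithelium. The part of free RNA in the split was not tested. In TA-like cells *Hnf4g* was 60.0 CPM with and 36.8 without the stomach genes, a ratio of 1.63 (1.31 to 2.04). *Gata4* was 73.2 against 47.4 CPM, a ratio of 1.54 (1.27 to 1.88), and *Hnf4a* was 266 against 207 CPM, a ratio of 1.29 (1.17 to 1.41). In Goblet-like cells *Cdx2* was 71.4 against 101 CPM, 1.41-fold lower (1.10 to 1.80). The split rests on as little as 1 UMI, and the cells on its sides differed in depth: Goblet-like cells with the stomach genes had a median of 28775 UMIs against 7521 without, and TA-like cells 56036 against 35041. Limited to cells of at least 20000 UMIs, the log2 ratio over all types was −0.75 for *Cdx1* and 0.45 for *Pdx1*. Under TMM scaling that of *Cdx1* was −0.37, that of *Cdx2* −0.04 and that of *Pdx1* 0.78, while *Gata6* (0.30) and *Hnf4g* (0.28) turned positive, and 5.42% of all genes were higher and 6.77% lower.

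**Figure D4:**
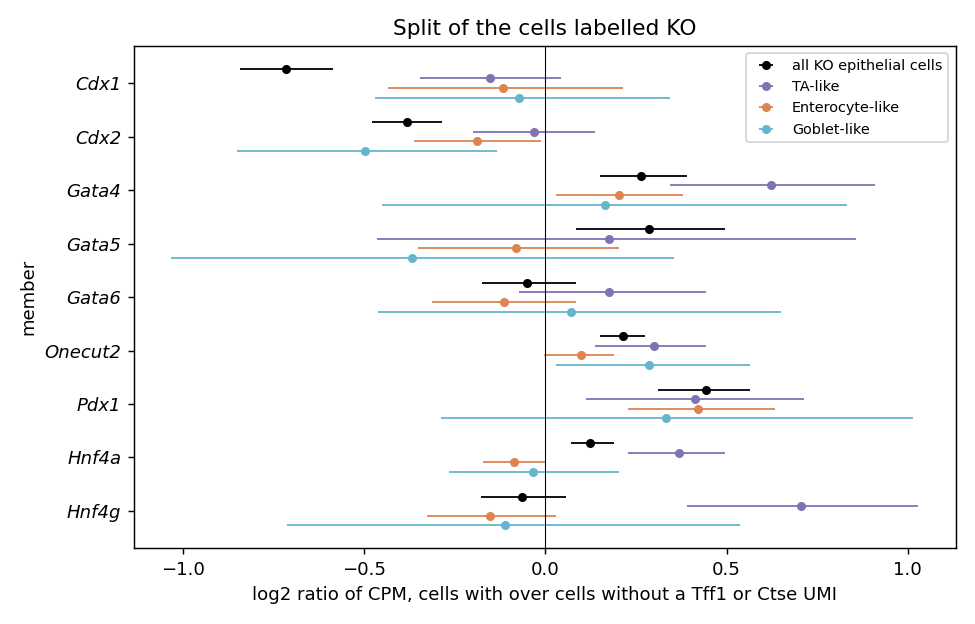
Log2 ratio of CPM between KO-labelled cells with and without a Tff1 or Ctse UMI, over all cells and within 3 types, with bars for the 95% interval of counting error. The Cdx1 point over all cells (−0.72) lies left of its 3 points within types, while the Pdx1 points lie together right of 0.

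*Tff1* and *Ctse* differed in the types that held them. *Tff1* stood at 535 CPM in Goblet-like cells against 11.5 in Enterocyte-like ones, and *Ctse* stood at 278 and 365 CPM in these. Yet only 45 of the 158 cells with a *Tff1* UMI were Goblet-like. Between the 2 Goblet-like clusters *Tff1* was uneven, at 603 CPM in KO-labelled cells of cluster 4 and 3.22 in those of cluster 12. Of the 3896 *Tff1* UMIs of KO-labelled epithelium, 3754 lay in the 271 cells with the highest summed CPM of *Tff1* and *Ctse*. A few cells can carry such summed levels, and the spread between cells was not tested. *Ctse* was no lower in the 158 cells with a *Tff1* UMI, at 371 CPM, than in the 925 cells with *Ctse* alone, at 326. Split by *Tff1* alone, 158 cells stood against 1346 without, and 925 of the latter had *Ctse*. The log2 ratio of *Cdx1* over all types was then 0.08 in place of −0.72. That of *Pdx1* was 0.06 in place of 0.44 and that of *Gata4* −0.22 in place of 0.27. Against the 421 cells with neither gene, cells with *Tff1* had *Cdx1* at 44.2 against 62.3 CPM and *Pdx1* at 69.9 against 52.1. *Gata4* was 66.7 against 65.3 CPM between these cells. Among the KO-labelled Goblet-like cells, 45 had a *Tff1* UMI and 153 had none (median depth 32802 and 22546 UMIs). Of the 153, only 55 lacked *Ctse* as well. *Hnf4g* was 21.4 against 34.7 CPM between them, 1.62-fold lower with *Tff1*. The ratios of the other 8 measured members, from 0.904 to 1.16, all had intervals that held 1.

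The 1083 cells with the stomach genes were also put into 4 bins of 270 or 271 cells by their summed CPM of *Tff1* and *Ctse*. The bins are ranges of a continuous value, not cell types, and their median depth lay between 41756 and 52021 UMIs. From the lowest to the highest bin *Cdx1* went through 57.8, 35.2, 26.2 and 25.3 CPM and *Cdx2* through 108, 81.3, 72.2 and 54.4. *Hnf4g* went through 81.0, 77.6, 64.7 and 44.7 CPM. *Hnf4a* ended at 297 CPM from 266, *Gata5* at 31.9 from 22.5, and *Pdx1* stood at 64.1, 74.8, 74.6 and 71.1.

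The 731 Enterocyte-like cells with the stomach genes were put into 4 bins of their own, since the types are mixed in the bins over all cells. In these *Cdx1* was 21.5, 23.4, 19.0 and 18.5 CPM, a narrower range. *Cdx2* was 73.2, 73.3, 70.8 and 47.6 CPM, and *Hnf4g* 87.4, 69.3, 65.9 and 41.8. Cluster 2 supplied 16.9%, 18%, 24.7% and 43.2% of the cells of these bins. *Pdx1* was 67.0, 74.0, 75.6 and 76.8 CPM, and *Hnf4a* 278, 297, 292 and 316. *Gata4* was 80.6, 84.2, 84.1 and 90.2 CPM, and *Gata6* 56.2, 55.7, 51.4 and 48.5. *Gata5* was 30.3, 24.6, 31.2 and 32.4 CPM, so its range over all bins was not met within the type.

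**Figure D5:**
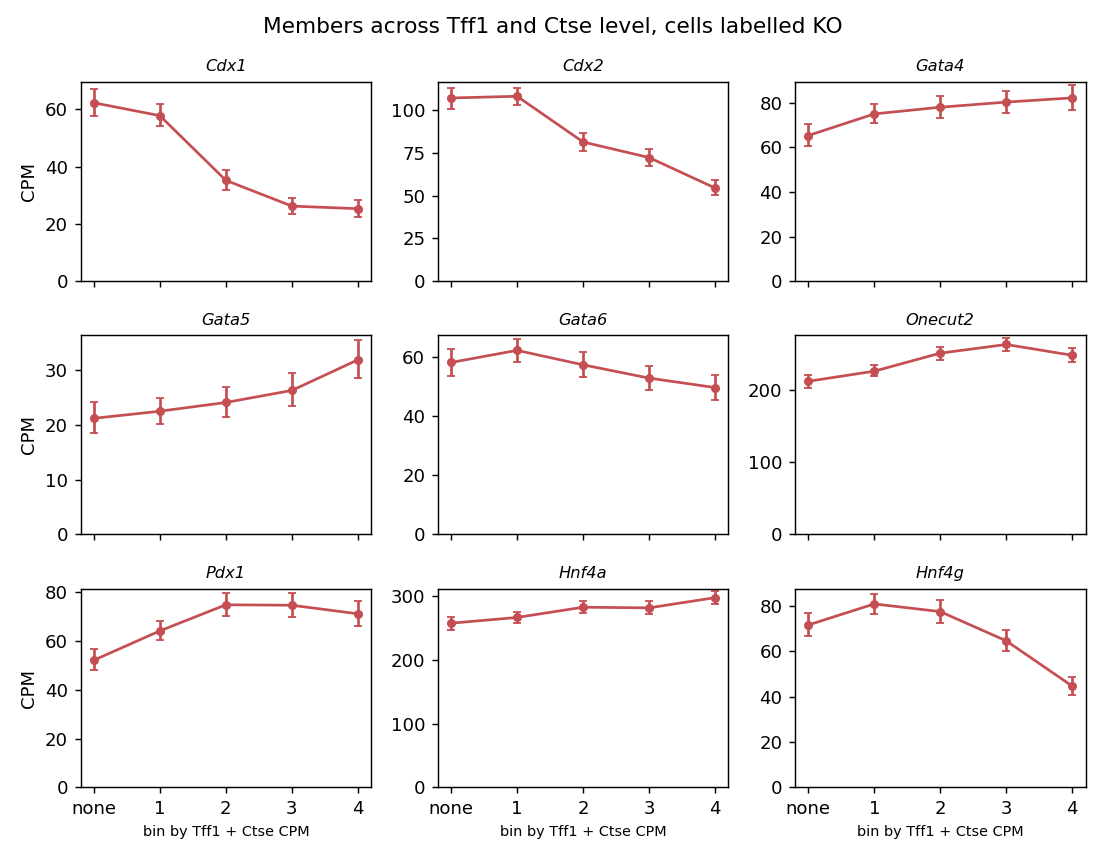
Levels of the 9 measured members (CPM) in KO-labelled cells without a Tff1 or Ctse UMI and in 4 bins of the cells with one, ordered by their summed Tff1 and Ctse CPM, with bars for the exact Poisson 95% interval. Cdx1, Cdx2, Gata6 and Hnf4g are lowest in the highest bin, Hnf4a, Gata4 and Gata5 are highest there, and Pdx1 lies between 71.1 and 74.8 CPM from the second bin on.

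Other regional transcription factors were read from a list of 34, of which 22 were measured for KO over Het. Of these 3 were at least 2-fold higher and 7 at least 2-fold lower, with a median log2 ratio of −0.51. For all genes tested the shares were 10.8% and 25.3% and the median −0.28, and the list lay near them. The highest were *Nkx6-3*, a homeodomain factor of the gastric antrum, at 0.539, 22.8 and 10.1 CPM in Het-, KO- and Rescue-labelled epithelium, and *Creb3l3*, a lipid regulator of liver and gut, at 164, 488 and 118 CPM. The lowest were *Sox9*, a factor of crypt base and Paneth cells, at 102, 26.7 and 53.4 CPM, and *Foxa2*, at 10.8, 2.36 and 4.29 CPM. The UMI share of Paneth-like cells (20.4%, 0% and 3.47%) had the same order as *Sox9*, and the part of those cells in its level was not tested.

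Each list of genes that mark a stretch of the gut held genes in both directions. Over all 12668 genes 10.8% were at least 2-fold higher for KO over Het and 25.3% at least 2-fold lower, with a median log2 ratio of −0.28. Of 13 gastric genes measured 10 were at least 2-fold higher and 3 at least 2-fold lower in KO-labelled than in Het-labelled epithelium (median log2 ratio 1.84). *Tff1* and *Ctse*, chosen beforehand to split the KO-labelled cells, are among the 10. For the annexin gene *Anxa10* the KO-labelled level of 662 CPM was at least 4090.5-fold higher, taken against a floor of 3 UMIs over the Het-labelled group, and the lower end of the exact 95% interval was 3326, and the lowest were *Pgc* (15.8 against 0.733 CPM) and *Gast* (5.66 against 0.538). *Nkx6-3* is on this list as well. Of 24 proximal small intestine genes 9 were higher and 8 lower (median 0.50). *Cybrd1* stood at 819.7 against 1.67 CPM and *Ada* at 4089.9 against 48.7, while *Lct*, the gene of lactase, stood at 0.326 against 95 and the duodenal hormone gene *Gip* at 3.90 against 422. *Gip* and *Gast* are genes of enteroendocrine cells, and the Enteroendocrine-like share was 56 of 515 Het-labelled and 19 of 1504 KO-labelled cells. Of 21 distal genes 6 were higher and 9 lower (median −0.76), with *Pyy* at 60.6 against 0.216 CPM and *Nts* at least 100.5-fold higher against the same floor (lower end of the exact interval 81.6). *Pyy* is likewise an enteroendocrine gene, a leading gene of the Enteroendocrine-like cluster 14, and it was higher in KO-labelled cells. The part of that class in the levels of *Gip*, *Gast* and *Pyy* was not tested. *Mptx2* stood at 0.913 against 637 CPM and *Itln1*, a Paneth and goblet cell lectin, at 104 against 6913. *Mptx2* is a leading gene of the Paneth-like cluster 17, whose cells held 20.4% of Het-labelled and 0% of KO-labelled UMIs, and their part in these levels was not tested. Of 8 colonic genes 1 was higher (*Slc37a2*, 27.5 against 6.04 CPM, followed by *Mettl7b* at 28.6 against 22.3) and 5 were lower (median −1.06), with *Car4* at 0.310 against 73.9 CPM and *Aqp4* at 5.70 against 47.7.

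Genes known to depend on the members were counted from 3 lists. Of 27 genes that need HNF4 factors, 10 were at least 2-fold higher and 3 lower for KO over Het (median log2 ratio 0.79). Among all genes 10.8% were higher and 25.3% lower, with a median of −0.28. For Rescue over KO 1 of the 27 was higher and 16 were lower (median −1.05). There 22.7% of all genes were higher and 11.1% lower, with a median of 0.26. *Alpi*, the brush border alkaline phosphatase, stood at 288, 2399 and 305 CPM in Het-, KO- and Rescue-labelled epithelium, and *Apoa4*, an apolipoprotein of lipid export, at 1321, 6816 and 543. Among the lower genes *Mep1a*, a brush border protease subunit, stood at 18.1, 3.47 and 7.38 CPM. Enterocyte-like cells, in which many of these genes are expressed, were 901 of the 1504 KO-labelled and 122 of the 515 Het-labelled cells, and the part of this mix was not tested.

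Of 18 genes that need CDX2, 4 were higher and 4 lower for KO over Het (median 0.79, against 10.8% and 25.3% of all genes and their median of −0.28). *Krt20*, a keratin of mature cells, stood at 177, 1364 and 216 CPM and *Heph*, the iron oxidase hephaestin, at 40.4, 120.5 and 50.1, while *Lct* and *Mep1a* were the lowest. *Cdx1* and *Hnf4a* are on this list themselves. Of 15 genes that need GATA4 or GATA6, 1 was higher and 9 were lower (median −1.26, against the same shares of all genes), and for Rescue over KO 8 were higher and 2 lower (median 1.10, against 22.7% and 11.1% of all genes and their median of 0.26). *Gip*, *Cck* and *Sct* on this list are enteroendocrine genes, and the Enteroendocrine-like class was 56 of 515 Het-labelled and 19 of 1504 KO-labelled cells. They stood at 422, 489.6 and 206 CPM in Het-labelled and at 3.90, 139 and 172 in KO-labelled epithelium, and the part of this mix was not tested. *Gip* and *Lct* were the lowest and *Apoa4* the highest, and *Onecut2*, a member here, was next with a ratio of 1.70. The lists overlap: *Lct* is on the proximal, CDX2 and GATA lists, and *Apoa4* on the proximal, HNF4 and GATA lists.

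Injury and handling genes differed between the libraries as well. For KO over Het 10.8% of all genes were at least 2-fold higher and 25.3% lower, with a median log2 ratio of −0.28. Of 13 fetal-like injury genes measured 10 were at least 2-fold higher in KO-labelled than Het-labelled epithelium and 1 was lower (median 1.85). *S100a6* stood at 5099 against 57.7 CPM, *Anxa1* was at least 197-fold higher against the same floor (lower end of the exact interval 160.2), and *Cyr61*, a YAP target, stood at 14.3 against 204. *Spp1* stood at 0.619 against 0.162 CPM. Of 11 immediate early and heat shock genes, which cell dissociation can induce, 2 were higher (*Hspa1a* and *Hspa1b*) and 8 lower (median −1.63). *Fosb* stood at 465, 53.5 and 152 CPM and *Egr1* at 782, 117 and 454 in Het-, KO- and Rescue-labelled cells. Their part in the levels of the members was not tested.

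The members were also compared by their pattern over the 12 library-by-type groups, as Pearson's r of log2(CPM + 1). These groups share libraries and depth, and the 1 Paneth-like group was low for every member, so the values describe and carry no p. Among the pairs of members the highest r was 0.79, for *Gata4* with *Cdx2* and for *Gata4* with *Hnf4g*. *Pdx1* had r of 0.74 with *Gata4*, 0.71 with *Hnf4a* and −0.08 with *Cdx1*, and the lowest r was −0.27, for *Cdx1* with *Gata5*. *Hnf4a* with *Hnf4g* had 0.41 and *Gata4* with *Gata6* 0.71.

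Of 8451 genes compared in this way, the closest to *Cdx1* were *Cdc26*, *Eif2b1* and *Fundc2* (r of 0.972, 0.972 and 0.970). The closest to *Cdx2* were *Nr2f6*, an orphan nuclear receptor (0.964), *Blvra* and *Vdac1*. *Gata4* came with *D1Ertd622e*, *Aktip* and *Dera* (0.972, 0.972 and 0.971), *Gata5* with *Ilvbl*, *Oasl2* and *Zfp747* (0.888, 0.885 and 0.881), and *Gata6* with *Yes1*, a Src family kinase (0.960), *Scnm1* and *Dtd2*. *Onecut2* came with *Dync1i2*, *Rab7* and *Trappc3* (0.975, 0.972 and 0.970). *Pdx1* came with *Tbc1d10b*, *Plekhh1* and *Hook2* (0.929, 0.915 and 0.910). *Hnf4a* came with *Arpc1b*, *Ptgr1* and *Epcam* (0.967, 0.958 and 0.958), and *Epcam* is the gene that gated the cells. *Hnf4g* came with *Fam73b*, *Glod5* and *Coa7* (0.980, 0.963 and 0.962).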

How the data were processed

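The authors deposited, per the file headers, matrices of UMI counts per gene and barcode written by Cell Ranger 3.0.2 (Het, KO) and 3.1.0 (Rescue), whereas version 1.3.0 appears in the submitters' processing notes. No source used here gives the genome build. Per the labels' protocols, 4000 to 5000 cells per library were taken after digestion with TrypLE for 1 h, for the 10x Genomics 3′ kit, version 3.

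Counts were summed over gated cells and scaled by total UMIs. CPM had exact Poisson and ratios conditional exact binomial 95% intervals (scipy 1.17.1), tested on simulated data. Cells were clustered in scanpy 1.11.5 (2000 variable genes, 30 components, 15 neighbours, Leiden resolution 1.0, members and batch correction left out). Non-epithelial names also needed a low *Epcam* level, a rule set after seeing the data. Doublets stayed in, and removing high scorers was an alternative. TMM factors came from edgeR 4.0.16, used for scaling only.

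The members and lists were chosen with earlier results of these data known. Named were the 10 members, the 2 highest and 2 lowest of each list for KO over Het, the 3 genes most like each member (at least 20 CPM in a group), and leading genes of clusters 0, 2 and 9, picked after their values were seen. A gene that this rule names is not reported here. Median log2 ratios of lists and of all genes used a pseudocount of 1 CPM. Alternatives changed the mitochondrial, gene and *Epcam* limits, weighting, scaling, minimum count, depth, doublets, types and split.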

Additional observations from a re-analysis of the deposited data

How the results depend on the processing

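No paired analysis was possible because each genotype has 1 library. *Pdx1* was at least 2-fold higher for KO over Het in 16 of 16 alternatives (log2 ratio 1.02 to 2.32), *Hnf4a* in 12 of 16 (0.38 to 1.62), and *Cdx1* was lower in 16 of 16 (−1.25 to −0.44) and at least 2-fold so in 9. The number of members at least 2-fold apart for KO over Het, 3, was 5 with a mitochondrial limit of 10%, all of them higher, and 1 with cells thinned to 2000 UMIs. For Rescue over KO the 1 member was *Cdx1*, higher. There it was 3 with the 10% limit, 2 under TMM scaling and 2 under median-ratio scaling, all of them lower and without *Cdx1* (log2 ratio 0.97, 0.70 and 0.65). It was 2 with thinned cells, 1 higher and 1 lower, and 0 with each cell weighted equally, 0 at equal weight of types and 0 in ISC-like and TA-like cells alone. For Rescue over Het, 0, it was 1 with thinned cells, 1 at equal weight of types and 1 in Enterocyte-like cells alone. For the split by *Tff1* and *Ctse*, 0, it was 1 (*Cdx1*, lower) at 5 or more UMIs of these genes. The 10% limit left 174 Het-labelled, 818 KO-labelled and 169 Rescue-labelled cells. In these the log2 ratio of *Hnf4g* was 2.04 for KO over Het, in place of 0.17, and −1.16 for Rescue over KO, in place of 0.01. That of *Cdx2* for KO over Het was 0.48 in place of −0.34. The cause of these shifts was not tested. Leaving out Paneth-like cells or clusters 15 and 16 of low depth, and in the split shallow cells or unequal weights of Enterocyte-like clusters, was added after seeing the data. Under other clusterings 310 of 324 levels by type stayed within their intervals. *Sox2* was under the minimum count, and counts were small in the Enteroendocrine-like group of 19 KO-labelled cells.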
